A study of Mus musculus with 4 samples.

Results

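The 9 genes described here belong to the adherens junction: Ctnna1, Ctnnal1, Ctnnb1, Ctnnd1, Jup, Cdh1, Cdh2, Vcl and Pkp4. They were taken by symbol from a table of 52192 gene identifiers. The list was drawn up with the lower Ctnna1 and Cdh1 RNA in Safb knockdown cells already known. The difference between knockdown and control is therefore given for these 9 genes as a description, with no p-value. RNA came from AML12 cells, a mouse hepatocyte line, infected with lentivirus and collected 5 days later. The virus carried either a control short hairpin RNA, named shCtrl, or one directed at Safb, named shSafb. The product of Safb, scaffold attachment factor B, belongs to the nuclear matrix. Each group had 2 libraries, and all 4 came from cells grown with 10% serum and 0.1 uM dexamethasone, a glucocorticoid. Whether replicates came from separate cultures is not stated, and p-values printed for other genes cover only the spread among these libraries, which may be technical. The labels used here do not give the hairpin sequences or say how many hairpins were used.

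Adherens junctions hold neighbouring epithelial cells together. Classical cadherins span the membrane and bind their like on the next cell, and their cytoplasmic tails carry beta-catenin or its close relative plakoglobin, together with p120-catenin. Alpha-catenin binds beta-catenin and links the complex to actin, directly and through vinculin. In liver, hepatocytes carry both E-cadherin and N-cadherin at their contacts.

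The values are in TPM, a length-corrected transcript abundance in which every library has the same total, so levels can be set side by side between genes. Read totals are not kept in this unit, and the depth is unknown. Safb was at 23.8 and 23.3 TPM in the shCtrl libraries and at 15.8 and 15.02 TPM in the shSafb libraries. All 10 hepatocyte markers checked were tested, of which limma called 3 higher and 2 lower at an adjusted p of 0.05. Of all tested genes, 21.9% were called higher and 22.4% lower. The summed TPM of the 10 markers was 9953 and 9780 in shCtrl and 13904 and 13748 in shSafb. Trf, the transferrin gene, rose by more than the sum did, from 2453 and 2418 to 6814 and 6778 TPM (limma adjusted p = 5.31e-04). Fgb, a scarce fibrinogen gene, rose 3.64-fold, from 1.57 and 2.49 to 7.18 and 7.59 TPM (limma adjusted p = 0.00473). Alb, the albumin gene, fell 2.91-fold and Apoa1, an apolipoprotein gene, from 56.4 ± 0.0298 to 28.1 ± 0.0423 TPM (limma adjusted p = 5.31e-04 and 8.63e-04). Their part in the differences of the junction genes was not tested. Krt8 and Krt18, the keratin genes of simple epithelia, were above 1680 TPM in every library and did not pass. The summed TPM of 7 endothelial markers was 0.0349 to 0.504 in the 4 libraries, with Cdh5, Kdr, Emcn and Cldn5 listed at 0. The sum over 9 fibroblast and stellate cell markers was 2.80 to 3.26 TPM, with Lum and Lrat listed at 0. That over 7 blood and immune markers was 0.657 and 1.24 TPM in shCtrl against 2.37 and 2.17 TPM in shSafb, most of it Csf1r in shSafb, with Cd3e, Adgre1 and Itgam listed at 0. Of 6 cholangiocyte markers 5 were tested, with 1 higher (Krt19), 3 lower and a sum of 1514 to 1676 TPM, and Epcam was at 0 in 3 of the 4 libraries. In bulk RNA, fewer cells of a kind and less RNA per cell cannot be told apart.

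Promoter sequences are shown for beta-catenin and plakoglobin, a closely related pair of which only the beta-catenin gene was lower in both shSafb libraries, and for vinculin, the actin linker. RefSeq tables on GRCm38.p6 (the mm10 coordinates) held a promoter for 6 of the 9 genes, all but Ctnna1, Cdh1 and Cdh2. Each sequence is the 250 bases before the first-listed transcription start, 5′ to 3′ on the gene's strand, and overlaps no annotated exon. Capitals mark CCAAT on either strand (ATTGG on the other) and, in Vcl, a CArG box, the motif bound by serum response factor.
Ctnnb1, chr9:120933150-120933399, plus strand: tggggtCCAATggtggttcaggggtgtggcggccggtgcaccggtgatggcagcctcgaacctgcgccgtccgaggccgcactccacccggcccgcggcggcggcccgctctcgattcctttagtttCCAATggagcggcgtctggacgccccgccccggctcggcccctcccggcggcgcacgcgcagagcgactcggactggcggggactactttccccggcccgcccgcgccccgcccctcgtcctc
Jup, chr11:100397791-100398040, minus strand: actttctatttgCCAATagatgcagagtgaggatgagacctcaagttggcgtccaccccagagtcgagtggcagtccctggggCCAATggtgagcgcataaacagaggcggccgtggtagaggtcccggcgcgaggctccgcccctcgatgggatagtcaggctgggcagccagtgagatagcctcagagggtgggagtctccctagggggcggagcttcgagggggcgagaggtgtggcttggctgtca
Vcl, chr14:20929148-20929397, plus strand: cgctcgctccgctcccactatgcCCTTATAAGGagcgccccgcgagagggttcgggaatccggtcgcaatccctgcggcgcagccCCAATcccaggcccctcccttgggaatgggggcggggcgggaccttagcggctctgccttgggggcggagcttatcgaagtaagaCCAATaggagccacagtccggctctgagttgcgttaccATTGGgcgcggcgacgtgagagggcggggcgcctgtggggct
The CArG box of Vcl begins 227 bases before the start, and 1.47% of 32851 mouse promoter windows of this length held one on either strand. CCAAT was found in the first-listed windows of 5 of the 6 genes (all but Ctnnal1) and in 33.8% of all windows. GGGCGG, the GC box (CCGCCC on the other strand), which can share letters with CCAAT, was found in 5 of the 6 (all but Ctnnd1) and in 32.7% of all windows. CACCTG, the E-box form read by Snail and Zeb repressors (CAGGTG on the other strand), was in 0 of the 6 and in 17.2% of all windows. TATAAA was in 0 of the 6 and in 12.4% of all windows. The counts over the 6 genes cover first-listed windows only. Ctnnb1, Ctnnd1 and Pkp4 had a second promoter entry, not printed here, and those of Ctnnb1 and Ctnnd1 overlap annotated exons. TATAAA began 120 bases before the second start of Ctnnb1 and 156 before that of Ctnnd1, and CAGGTG 47 before that of Pkp4. The second Ctnnb1 window held 0 CCAAT. Such matches describe the letters of these windows only.

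Alpha-catenin RNA differed most among the 9 genes. Ctnna1, which encodes alpha-E-catenin, was at 349 and 334 TPM in the shCtrl libraries and at 71.98 and 70.3 TPM in the shSafb libraries. Both shSafb values lay far below both shCtrl values, and the libraries of each group were close together. The mean went from 341 ± 10.6 to 71.1 ± 1.21 TPM (SD, n = 2 each), which left 20.9% of the control level, 4.80-fold lower. The log2 difference, shSafb minus shCtrl on the log2(scaled TPM + 1) scale used for every log2 value here, was -2.22 ± 0.04 (SE). Ctnna1 had the 23rd lowest log2 difference of 13111 tested genes, and the lowest of the 1202 genes with a mean of at least 100 TPM. That mean is over all 4 libraries, and Ctnna1 reached it only through shCtrl. Both ranks come from the contrast used to choose the gene, so they only describe its difference. It went from the 292nd most abundant tested gene in shCtrl to the 1710th in shSafb. The gene (ENSMUSG00000037815) is located on chromosome 18 (mm10, 35118859 to 35254779, plus strand). Lrrtm2 lies inside it on the opposite strand and was listed at 0 in all 4 libraries. The other alpha-catenin genes, Ctnna2 and Ctnna3, added under 1 TPM together, since Ctnna1 made up 99.4% to 99.8% of the summed TPM of the 3 in each library.

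Ctnnal1 encodes alpha-catulin, a relative of alpha-catenin and vinculin, and was scarce. It was at 3.72 and 4.71 TPM in shCtrl and at 4.23 and 4.25 TPM in shSafb, so the shSafb values lay between the shCtrl values. Its log2 difference was 0.03 ± 0.14 (SE). Vcl encodes vinculin, which binds alpha-catenin under tension and also serves integrin adhesions. It was at 138 and 129 TPM in shCtrl against 107 and 109.9 TPM in shSafb, 1.23-fold lower without overlap (log2 difference -0.27 ± 0.04). The last exons of Vcl overlap those of Ap3m1 on the opposite strand (18.5 TPM on average), so Vcl is uncertain to that extent if strand was not used in counting.

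**Figure D1:**
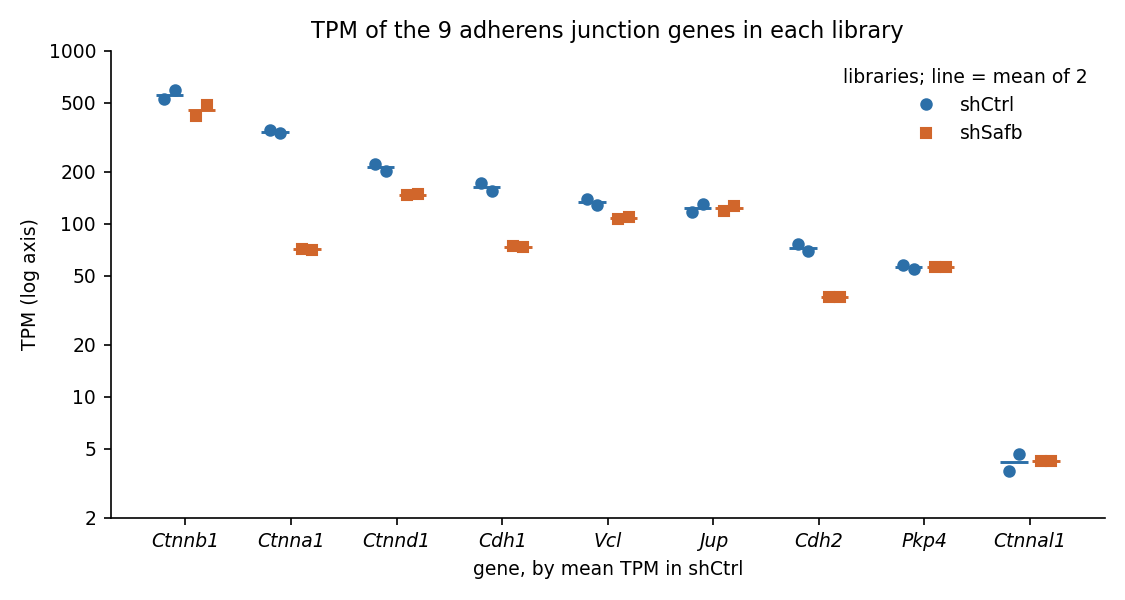
TPM of each of the 9 genes (log axis), ordered by the shCtrl mean, with circles for the 2 shCtrl libraries, squares for the 2 shSafb libraries and a line at each mean. Ctnna1 is second in shCtrl at 341 TPM and sixth in shSafb at 71.1 TPM, while Jup, Pkp4 and Ctnnal1 overlap between the groups.

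The cadherins were both lower. Cdh1, the gene of E-cadherin, was at 173 and 154 TPM in shCtrl and at 74.2 and 73.4 TPM in shSafb. Its mean went from 164 ± 13.4 to 73.8 ± 0.540 TPM, 2.22-fold lower (log2 difference -1.11 ± 0.06). That was the 343rd lowest difference of all tested genes and the 29th lowest of the 1202 abundant ones. Cdh1, like Ctnna1, was among the abundant genes only through its shCtrl values. The gene (ENSMUSG00000000303) is located on chromosome 8 (106603351 to 106670246, plus strand). Cdh2, the gene of N-cadherin, was at 76.4 and 69.3 TPM in shCtrl and at 37.6 and 37.7 TPM in shSafb. It was 1.93-fold lower (log2 difference -0.91 ± 0.05), the 606th lowest difference, and is located on chromosome 18 (16588877 to 16809246, minus strand). In both cadherin genes the groups were well apart and the shSafb libraries nearly equal. Cdh1 remained the more abundant of the pair: its TPM was 2.26 and 2.22 times that of Cdh2 in shCtrl and 1.97 and 1.95 times in shSafb. E-cadherin made up 69.4% and 69.0% of the summed TPM of the pair in shCtrl and 66.4% and 66.0% in shSafb. The sum of the pair went from 249 and 223 TPM to 112 and 111 TPM.

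The genes whose proteins bind the cadherin tail were lower by less or not at all. Ctnnb1, which encodes beta-catenin, also the effector of Wnt signalling, was the most abundant of the 9 genes in both groups. It was at 525 and 590 TPM in shCtrl and at 421 and 483 TPM in shSafb. The groups did not overlap, but each spread widely beside the gap between them, and the log2 difference was -0.28 ± 0.10. Jup, which encodes plakoglobin and serves desmosomes as well, was at 116 and 131 TPM in shCtrl and 119 and 127 TPM in shSafb, with the shSafb values between the shCtrl values (log2 difference 0.02 ± 0.09). Plakoglobin made up 18.2% and 18.1% of the summed TPM of the Ctnnb1 and Jup pair in shCtrl and 22.1% and 20.8% in shSafb.

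Ctnnd1 encodes p120-catenin, which binds the cadherin tail next to the membrane and keeps cadherins from being taken up. It was at 223 and 201 TPM in shCtrl and at 146 and 148 TPM in shSafb, 1.44-fold lower without overlap (log2 difference -0.50 ± 0.05). Pkp4, which encodes the p120 relative plakophilin 4, was at 57.5 and 55.2 TPM in shCtrl and 56.2 and 56.5 TPM in shSafb. The shSafb values lay between the shCtrl values (log2 difference 0.03 ± 0.05). The TPM of Pkp4 was 0.258 and 0.274 times that of Ctnnd1 in shCtrl and 0.384 and 0.383 times in shSafb.

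All 9 genes passed the filter of a mean of at least 1 TPM. In the limma fit over all tested genes, 5 of the 9 were past a Benjamini-Hochberg adjusted p of 0.05 and lower in shSafb (Ctnna1, Cdh1, Cdh2, Ctnnd1 and Vcl), beside 22.4% of tested genes called lower. Of the 9, 0 were called higher (also 0 at an unadjusted limma p under 0.05), beside 21.9% of tested genes. When a 1.5-fold difference was required as well, 3 were lower, beside 10.7% of tested genes. In 6 of the 9 both shSafb values were below both shCtrl values, beside 39.3% of tested genes. As the genes were chosen with this contrast in view, nothing is read from these counts. Vcl was not past the threshold without shSafb replicate 1 or without shSafb replicate 2, which leaves 4 genes. The median log2 difference of the 9 was -0.28, beside 0.00 over all tested genes.

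**Figure D2:**
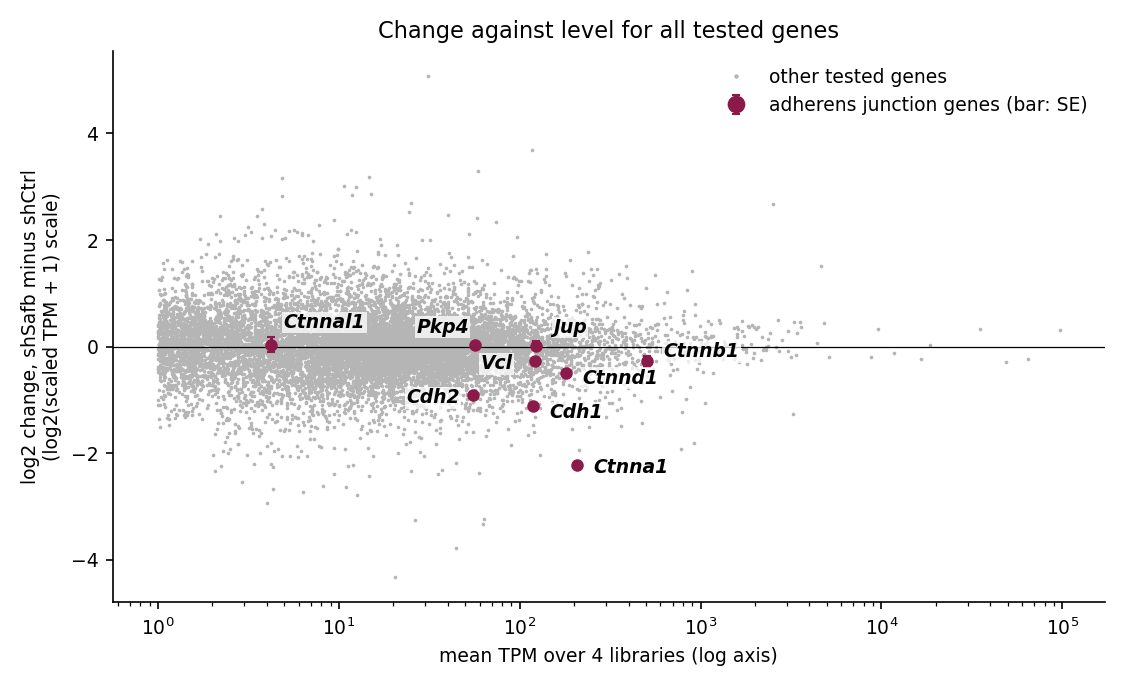
Log2 difference (shSafb minus shCtrl) against mean TPM over the 4 libraries (log axis) for the 13111 tested genes, with the 9 adherens junction genes named and their standard errors as bars. Ctnna1 at -2.22 is the lowest point among the genes with a mean of at least 100 TPM, which it reaches only through shCtrl. Jup, Pkp4 and Ctnnal1 lie at the centre of the cloud.

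The unequal differences altered the proportions of the junction RNAs within each library, a measure that scaling between libraries does not touch. Ctnna1 had 0.664 and 0.566 times the TPM of Ctnnb1 in shCtrl and 0.171 and 0.146 times in shSafb, a ratio 3.88-fold lower. Against Vcl, its ratio went from 2.52 and 2.59 to 0.672 and 0.640. Ctnna1 was therefore the more abundant of these 2 actin linker RNAs in both shCtrl libraries and the less abundant in both shSafb libraries. Against Cdh1, the other gene with a large difference, the ratio of Ctnna1 still went from 2.02 and 2.17 to 0.971 and 0.957, so the difference in alpha-catenin RNA was the larger in all 4 pairings of libraries. Ctnnb1 had 3.04 and 3.83 times the TPM of Cdh1 in shCtrl and 5.67 and 6.58 times in shSafb. Ctnnd1 had 1.29 and 1.31 times the TPM of Cdh1 in shCtrl and 1.97 and 2.01 times in shSafb. The 9 genes summed to 1661.8 and 1667 TPM in shCtrl and 1037 and 1110 TPM in shSafb. Ctnna1 made up 20.98% and 20.01% of that sum in shCtrl and 6.94% and 6.33% in shSafb.

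**Figure D3:**
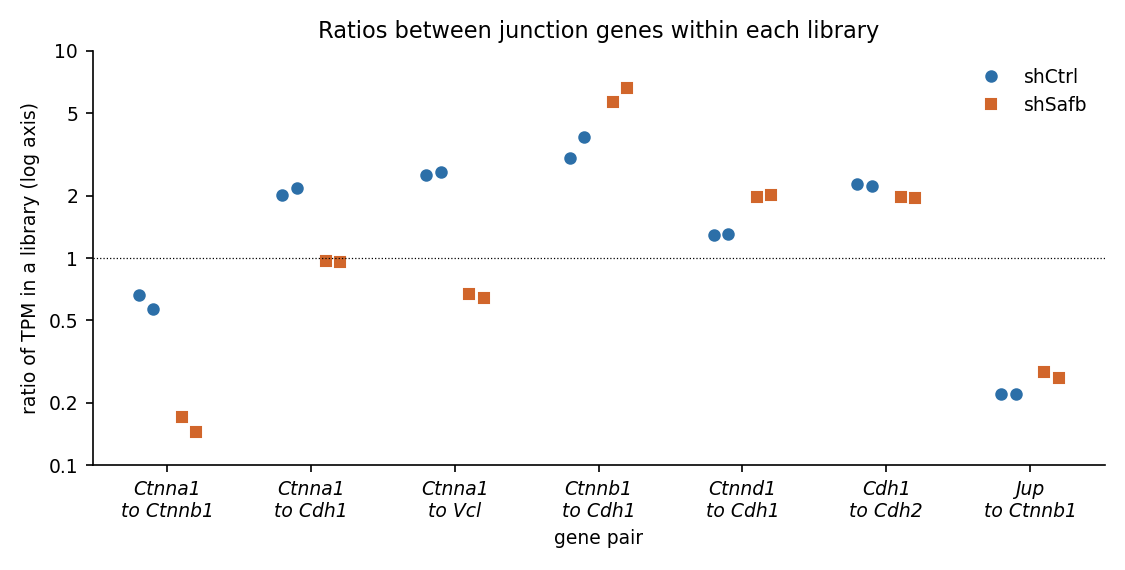
Ratio of the TPM of gene pairs within each library (log axis), with circles for shCtrl, squares for shSafb and a dotted line at 1. The 3 ratios of Ctnna1 to another gene are lower in shSafb, whereas the ratios of Ctnnb1 and Ctnnd1 to Cdh1 are higher.

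In shCtrl the order of the levels was Ctnnb1, Ctnna1, Ctnnd1, Cdh1, Vcl, Jup, Cdh2, Pkp4 and Ctnnal1. Only Vcl and Jup, as neighbours in that order, had overlapping values. In shSafb the order was Ctnnb1, Ctnnd1, Jup, Vcl, Cdh1, Ctnna1, Pkp4, Cdh2 and Ctnnal1, and no neighbours overlapped, though Cdh1 at 73.8 ± 0.540 and Ctnna1 at 71.1 ± 1.21 TPM were close. Ctnna1 thus went from the second to the sixth place, and Cdh2 came to lie below Pkp4.

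The nearest tested protein-coding genes on either side of each of the 9, chosen by position, were not part of the rule for the 9 genes. Genes that overlap a member, such as Ap3m1 for Vcl and Ulk4 for Ctnnb1, were not counted as neighbours. Of these 18 neighbours 1 was called higher and 2 lower, beside 21.9% and 22.4% of all tested genes. Some lay far off, those of Cdh2 at 1437430 and 3748827 bases. Whether position bears on the differences of the 9 genes was not tested. Beside Ctnna1, Hspa9, a mitochondrial chaperone gene 164501 bases before it, was at 322 and 324 TPM in shCtrl and 320 and 304 TPM in shSafb (log2 difference -0.03 ± 0.05, limma adjusted p = 0.709). Sil1, a chaperone cofactor gene 11616 bases after Ctnna1, was at 38.3 and 37.6 TPM in shCtrl and 44.3 and 40.2 TPM in shSafb (0.17 ± 0.07, limma adjusted p = 0.105). Tango6, the nearest such gene after Cdh1, was at 10.5 and 10.5 TPM in shCtrl and 10.2 and 11.97 TPM in shSafb (0.09 ± 0.10, limma adjusted p = 0.518). Gm10073, before Cdh1, was at 3.54 and 3.24 TPM in shCtrl and 2.84 and 2.56 TPM in shSafb (-0.23 ± 0.12, limma adjusted p = 0.177). None of these 4 neighbours of Ctnna1 and Cdh1 passed the threshold. Adk, the adenosine kinase gene 18897 bases after Vcl, fell from 245 and 235 to 173 and 172 TPM, 1.39-fold (-0.45 ± 0.04, limma adjusted p = 0.00189). Upp2, a uridine phosphorylase gene before Pkp4, was called lower at 6.15 ± 0.718 against 3.71 ± 0.248 TPM (limma adjusted p = 0.0164), a call kept only without shCtrl replicate 2 when libraries were left out (0.0504 to 0.0717 in the other fits). Calcrl, a receptor gene before Ctnnd1, was called higher at 0.738 ± 0.210 against 1.68 ± 0.144 TPM (limma adjusted p = 0.0365), and leaving out any 1 library ended that call (0.0607 to 0.134).

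The genes whose values over the 4 libraries were most like those of Ctnna1 and Cdh1 have varied functions. Among 7931 other protein-coding genes with a mean of at least 10 TPM, the 3 whose centred log2 values lay nearest to Ctnna1 were Ugt2b35, a glucuronosyltransferase gene (Euclidean distance 0.0811), Qpct, a glutaminyl cyclase gene (0.152), and Fzd7, a Wnt receptor gene (0.162). Fzd7 was at 25.9 and 25.3 TPM in shCtrl and 5.40 and 5.15 TPM in shSafb. In mean TPM, Ugt2b35 was 5.95-fold, Qpct 5.74-fold and Fzd7 4.85-fold lower, beside 4.80-fold for Ctnna1. The added 1 TPM shrinks the log2 differences of genes as low as Ugt2b35 and Qpct in shSafb (means of 3.24 and 3.57 TPM). The nearest to Cdh1 were Ahnak2 (0.0243), Slc22a18 (0.0398) and Myo1e (0.0425). Myo1e, which encodes a class I myosin, was at 96.9 and 89.9 TPM in shCtrl and 42.4 and 42.0 TPM in shSafb. With 4 libraries in 2 groups, such likeness mostly reflects a like difference between the groups.

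The other genes of the junction were taken from 11 lists, of which 176 distinct genes were in the table and 128 were tested. Of these, 34 were higher and 37 lower in shSafb, or 55.5% of those tested, beside 44.3% of all tested genes (limma, adjusted p under 0.05). The number lower was 23 without shCtrl replicate 1 and 22 without shSafb replicate 1. Their median log2 difference was -0.05, beside 0.00 over all tested genes.

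Other cadherins were not uniformly lower. Of 5 tested, 1 was higher and 2 lower, and 15 others were too scarce to test. Cdh17, the liver-intestine cadherin, rose from 42.6 and 38.6 to 85.6 and 85.3 TPM, 2.10-fold (log2 difference 1.08 ± 0.05, limma adjusted p = 7.82e-04). Cdh6, a type II cadherin gene almost as abundant as Cdh1 in shCtrl, fell from 149.9 and 141 to 100.3 and 103.8 TPM, 1.42-fold (limma adjusted p = 0.00234). The other call of a lower gene, that of the scarce Cdh13, was made again only without shSafb replicate 1 when libraries were left out. In shSafb Cdh6 and Cdh17 were thus both above Cdh1. Summed over all 22 cadherin genes listed, Cdh1 and Cdh2 included, the level was 475 and 433 TPM in shCtrl and 331 and 333 TPM in shSafb.

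Of 4 other catenin and armadillo genes tested, 2 were lower and 0 higher (also 0 at an unadjusted limma p under 0.05). Pkp2, which encodes the desmosomal protein plakophilin 2, fell from 32.0 ± 1.57 to 24.3 ± 0.323 TPM (limma adjusted p = 0.00932), a call lost without shSafb replicate 1 (0.0546). Ctnnbip1, which encodes an inhibitor of beta-catenin binding to TCF, fell from 6.58 ± 0.601 to 4.28 ± 0.0260 TPM (limma adjusted p = 0.0171), and it did not pass without shCtrl replicate 1 (0.0724), shSafb replicate 1 (0.0723) or shSafb replicate 2 (0.0686). Ctnnbl1, the most abundant of the list, was at 55.5 ± 0.559 and 55.3 ± 2.97 TPM.

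The nectin and afadin system, a parallel adhesion system linked to actin by afadin, had 3 genes higher and 2 lower of 8 tested. Nectin2 rose from 64.8 and 57.0 to 82.3 and 79.99 TPM (log2 difference 0.44 ± 0.06, limma adjusted p = 0.00679). Afdn, the afadin gene, was called higher at 91.7 ± 5.40 against 101 ± 1.30 TPM (limma adjusted p = 0.0445), and Nectin1 lower at 3.25 ± 0.508 against 1.80 ± 0.0542 TPM (0.0255). Leaving out any 1 of the 4 libraries ended the calls of Afdn and Nectin1 (limma adjusted p of 0.0519 to 0.162 in these fits), and left 1 gene higher and 0 lower. Exons of Afdn also overlap Tcte2 on the opposite strand (6.85 TPM on average).

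Actin linkers of the junction split evenly, with 8 higher and 9 lower of 24 tested. Lima1, which encodes the alpha-catenin partner EPLIN, fell from 25.2 and 24.4 to 9.81 and 9.95 TPM, 2.51-fold (log2 difference -1.22 ± 0.07, limma adjusted p = 8.38e-04). Cttn, the cortactin gene, fell from 306 and 292 to 173 and 174 TPM (limma adjusted p = 7.82e-04), and Tes, a LIM domain gene, fell 1.46-fold (0.00166). Ajuba, which encodes a LIM protein that binds alpha-catenin, rose from 59.3 and 56.4 to 90.1 and 92.9 TPM (log2 difference 0.68 ± 0.05, limma adjusted p = 0.00119). The number higher was 5 without shSafb replicate 1 and 5 without shSafb replicate 2, and the number lower was 6 without shCtrl replicate 1.

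Of 9 repressor genes of E-cadherin tested, 1 was higher and 3 lower, and the median log2 difference of the 9 was 0.05, beside 0.00 over all tested genes. Snai3, a scarce Snail family gene, rose from 0.742 and 0.890 to 2.85 and 3.20 TPM (log2 difference 1.16 ± 0.14, limma adjusted p = 0.00437). Zeb1 was at 24.2 and 22.0 TPM in shCtrl and 23.6 and 24.2 TPM in shSafb (limma adjusted p = 0.386), and Snai2, the Slug gene, at 4.35 and 3.16 against 4.26 and 4.31 TPM (0.347). Snai1, Zeb2, Twist1, Klf8, Foxc2 and Gsc were below the filter. Tcf3, which encodes the E2A proteins, fell from 43.4 and 39.1 to 22.3 and 21.9 TPM (log2 difference -0.85 ± 0.06, limma adjusted p = 0.00139). Ctbp1, a corepressor gene, fell from 102 ± 2.87 to 66.9 ± 7.90 TPM (limma adjusted p = 0.00795). Twist2 was called lower at 5.67 ± 0.607 against 3.54 ± 0.636 TPM (limma adjusted p = 0.0369), and it did not pass without shCtrl replicate 1 (0.138), shCtrl replicate 2 (0.0812) or shSafb replicate 1 (0.123). Tcf4 at 7.23 ± 0.206 and 7.05 ± 0.365 TPM, Ctbp2 at 52.5 ± 0.733 and 56.4 ± 2.21 TPM and Kdm1a at 50.04 ± 1.60 and 50.9 ± 0.951 TPM did not pass. Ctbp2 shares exons with the abundant gene Fgfr2 in the annotation, so its value is uncertain.

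Epithelial regulators had 4 genes higher and 2 lower of 9 tested. Ehf, an epithelial Ets factor gene, rose from 8.67 ± 0.540 to 15.7 ± 1.88 TPM (limma adjusted p = 0.00527). Klf4, a Kruppel-like factor gene, rose from 1.21 ± 0.0826 to 2.91 ± 0.140 TPM (limma adjusted p = 0.00857). Hnf4a, a master factor of hepatocytes, was the most abundant, at 167 ± 3.64 and 160 ± 3.45 TPM (limma adjusted p = 0.547). The number lower was 0 without shCtrl replicate 1 or shSafb replicate 1, and 1 without shCtrl replicate 2.

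Genes of cadherin shedding, uptake and turnover had 5 lower and 1 higher of 18 tested. Mmp14, a membrane-bound matrix protease gene, fell from 113 and 104 to 53.9 and 51.4 TPM, 2.05-fold (log2 difference -0.998 ± 0.05, limma adjusted p = 8.52e-04). Adam15, a metalloprotease gene, fell from 26.5 ± 2.12 to 16.7 ± 1.004 TPM (limma adjusted p = 0.00958), and Exoc4, an exocyst subunit gene, from 155 ± 0.587 to 109.8 ± 3.67 TPM (0.0031). The single call of a higher gene, that of Arf6, was made again only without shCtrl replicate 2 when libraries were left out, and 3 genes were lower without shCtrl replicate 1.

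Kinases, phosphatases and small GTPase regulators of the junction had 8 higher and 7 lower of 28 tested. Ptprj, a receptor tyrosine phosphatase gene, rose from 16.8 and 15.5 to 39.8 and 41.3 TPM, 2.51-fold (log2 difference 1.30 ± 0.06, limma adjusted p = 7.48e-04). Egfr, the epidermal growth factor receptor gene, fell from 119 and 107 to 60.7 and 60.0 TPM (log2 difference -0.87 ± 0.05, limma adjusted p = 9.52e-04), and Rnd3, a small GTPase gene, rose from 28.7 ± 0.936 to 51.2 ± 3.06 TPM (0.00148). Rhoa, the most abundant of the list, was at 309 ± 30.4 and 271 ± 1.73 TPM (limma adjusted p = 0.0891, and 0.0307 without shCtrl replicate 2). Exons of Rhoa overlap those of Tcta on the opposite strand (57.4 TPM on average), so Rhoa is uncertain in the same way as Vcl. The number lower was 3 without shSafb replicate 1 and 4 without shSafb replicate 2. Of 15 genes listed for the destruction of beta-catenin and its control, not all of them parts of the destruction complex, 4 were higher and 2 lower. Csnk1e, a casein kinase gene, rose 1.31-fold (limma adjusted p = 0.00473), and Btrc, which encodes the ubiquitin ligase subunit beta-TrCP, fell 1.39-fold (0.00506). Tnks2, a tankyrase gene, rose from 229 ± 0.965 to 274 ± 3.16 TPM (limma adjusted p = 0.00704). Without shSafb replicate 2 this list had 2 higher, and without each library but shCtrl replicate 2 it had 1 lower.

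**Figure D4:**
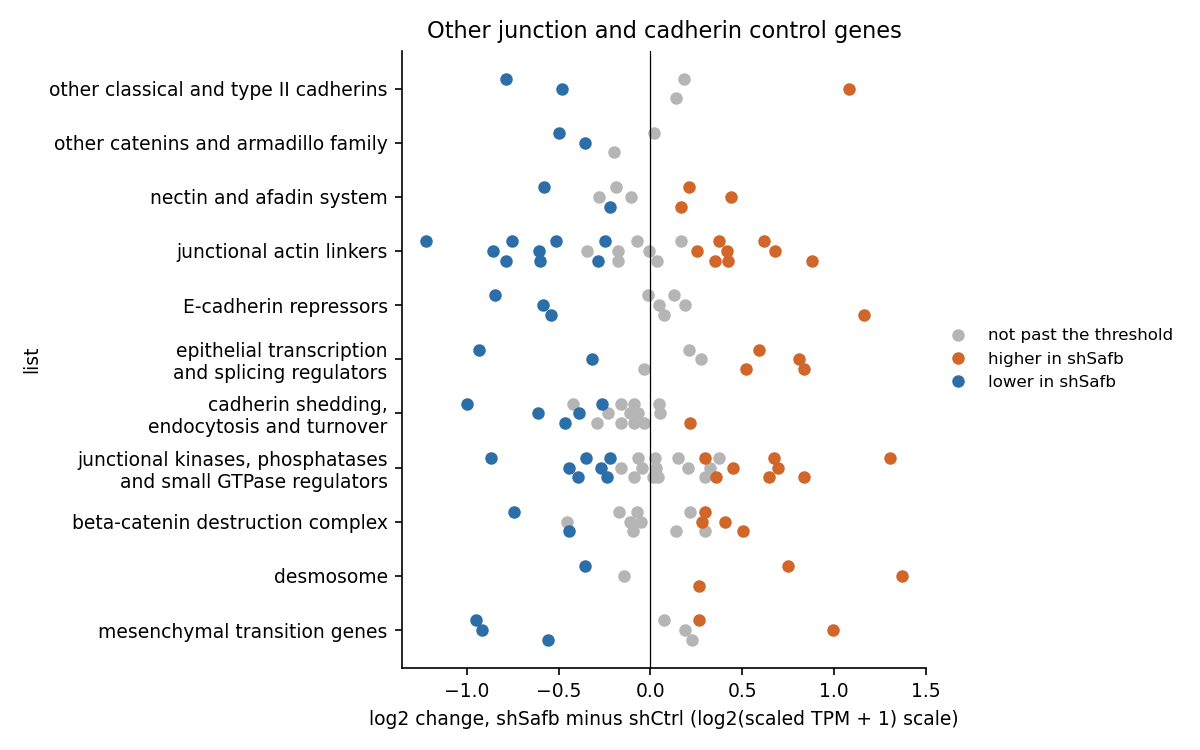
Log2 difference (shSafb minus shCtrl) of each tested gene in the 11 lists, 1 row per list, with colour for the limma call at an adjusted p of 0.05. Each list but the catenin and armadillo list, which has 2 lower and 0 higher, holds calls in both directions.

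Desmosomes, the other cadherin-based junctions, had 3 genes higher and 1 lower of 5 tested. Perp rose from 200.1 and 197 to 502 and 511 TPM, and Ppl, the periplakin gene, from 44.4 and 42.2 to 73.5 and 70.5 TPM (log2 differences 1.37 ± 0.04 and 0.75 ± 0.05, limma adjusted p = 5.31e-04 and 0.00121). The 1 gene lower was Pkp2, and it was not called without shSafb replicate 1. Genes of mesenchymal transition had 2 higher and 3 lower of 8 tested. Vim, the vimentin gene, fell from 583 and 544 to 295 and 291 TPM (log2 difference -0.92 ± 0.04, limma adjusted p = 6.36e-04). Itga5, an integrin subunit gene, fell 2.05-fold and Fn1, the fibronectin gene, 1.503-fold (limma adjusted p = 0.00264 and 0.00351). With 1 library left out, 1 of the 2 higher calls was lost without shCtrl replicate 1 or shSafb replicate 1.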

How the data were processed

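RNA was measured in 4 libraries of AML12 cells, 2 per group. Ribosomal RNA was depleted and strand-specific libraries were made, per the labels' protocols. The authors deposited 1 table of TPM, with a value for each gene in each library. HISAT2, HTSeq, StringTie and DESeq2 with mm10 are named in the submitters' processing notes, and versions, order, annotation and use of strand in counting are not given in the sources used here. The TPM summed to 999891 in each shCtrl and 999843 in each shSafb library, so read depth cannot be read from them and counting error is unknown. The 6 identifiers on more than 1 row of the 52200 were summed. Names and coordinates came by identifier from GENCODE mouse release 21 (GRCm38), which held 52045 of 52192 identifiers. Small RNA genes held 29.9% to 31.9% of the TPM and mitochondrial genes 0.703% and 0.845% in shCtrl and 0.318% and 0.343% in shSafb.

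The test covered 13111 genes whose mean over the libraries reached 1 TPM. Libraries were divided by median-ratio factors (1.03, 0.991, 0.992 and 0.995), and log2(scaled TPM + 1) was fitted with limma 3.58.1 in R 4.3.3 (two-sided; empirical Bayes with an intensity trend; group as the only term), with a Benjamini-Hochberg adjusted p under 0.05 as threshold. Fold changes are ratios of mean deposited TPM, and log2 values understate the change of genes near 0. An exact permutation of 2 against 2 libraries cannot reach 0.05. The genes and lists were chosen with earlier results of these data known. Named genes were the 9 members, up to 3 called genes with the smallest p and a mean TPM of at least 2 from each list, the most abundant gene of each list where it was not called, every tested E-cadherin repressor, Safb, and the 3 genes nearest to Ctnna1 and to Cdh1. Arf6, Cdh13, Trf, Fgb, Alb, Apoa1, Krt8, Krt18, Krt19, Csf1r and markers listed at 0 lie outside this rule and were named after their values were seen, and neighbouring genes were named by position. Some genes that the rule selects are left out of the text. The fit was tested on simulated data (10 draws of 12937 to 12950 genes for shSafb against shCtrl, 200 changed): it called 23.9% of genes changed 1.5-fold, 47.4% of those changed 2-fold and 75.8% of those changed 4-fold, and 4.01% of its calls were false. The simulated noise was normal, with each gene's own residual SD. Far fewer genes were changed in it than the 44.3% called in these data, so these rates need not hold here. Alternatives covered the pseudocount, filter, scaling, variance model, replicate block, each library left out and a fold threshold. Python 3.11.15 with pandas 2.3.3 and matplotlib 3.10.9 was used.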

Additional observations from a re-analysis of the deposited data

How the results depend on the processing

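The log2 difference of Ctnna1 was -2.22, and it moved beyond its small replicate spread with no further scaling (-2.25), upper-quartile scaling (-2.18), small RNA and mitochondrial genes left out (-2.26) and shSafb replicate 2 left out (-2.19). With each library left out in turn it ran from -2.23 to -2.19, and that of Cdh1 from -1.17 to -1.06 (-1.11 with all libraries). Of the 9 members 5 were called lower, beside 22.4% of all tested genes. When a 1.5-fold difference was required as well, 3 were, beside 10.7%. The members were chosen with this contrast in view, so nothing is read from counts over them. Of the genes in the lists, 34 were called higher and 37 lower, 23 to 30 and 22 to 30 with a library left out, and 16 and 15 with the fold threshold. Of all genes, 2867 were called higher and 2938 lower, 1768 to 2124 and 1961 to 2186 with a library left out, and 1303 and 1408 with the fold threshold. In leave-one-out fits the lone library is assumed to vary like the other group. The replicate number as a block gave 6 members called lower, Ctnnb1 being the added gene, and 2540 genes higher, but the numbers did not pair the libraries: deviations of same-numbered libraries correlated at -0.0641. The signs of the log2 differences of Jup, Pkp4 and Ctnnal1, all near 0, turned under some settings (ranges -0.10 to 0.12, -0.01 to 0.06 and -0.13 to 0.19). Among the values for single genes and single lists under the alternatives, 1291 kept their direction and side of the threshold or stayed within their spread, 71 moved beyond it, 41 fell short of the threshold and 8 came past it, with no called value turning sign. Counts of calls in a list have no spread. They were taken as moved when they changed more than 1.5-fold, or to or from 0. The ratios within a library do not depend on these choices. With unknown depth, values under about 5 TPM, such as those of Ctnnal1, Snai3 and Klf4, have an unknown counting error.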
